A study of Bos taurus with 8 samples.

Results

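Amino acid transporters of 7 solute carrier families were examined in bovine mammary epithelial cells: the SLC1, SLC3, SLC6, SLC7, SLC36, SLC38 and SLC43 families. A gene was a member if the array named a probe for it by one of these family names followed by a member number. The array held 104 such probes for 54 genes. Of these genes, 33 had a probe well above background on at least 2 of the 8 arrays, and they stood among 12608 named genes measured in all. Each gene was read from its brightest such probe. Of the 104 probes, 3 named SLC6A9 were not used because their accession belongs to another gene. Outside the 104, 1 probe of SLC7A6OS, an antisense neighbour of SLC7A6, was not counted either. The genes SLC1A2, SLC6A3, SLC6A19, SLC36A1 and SLC38A8 were not analysed here.

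The cells were primary bovine mammary epithelial cells from tissue of a lactating Holstein cow, grown to passage 5 in culture. Short hairpin RNAs (shRNAs) against EEF1D were used in 6 arrays: EEF1D-1357 in 3 and EEF1D-1893 in 3. The 2 remaining arrays were controls, labelled as without shRNA. The shRNA groups carry the genotype label EEF1D knockdown, and all groups share the cell type and passage. The labels name no non-targeting shRNA for the controls. They do not say that replicates were separate cultures, so p-values measure the spread between these arrays, which may be technical. EEF1D encodes a subunit of translation elongation factor 1, which recharges the factor that brings aminoacyl-tRNA to the ribosome. The labels name a single cow as the source of the cells, so no spread between animals was measured.

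Mammary epithelium takes up amino acids for milk protein synthesis through carriers of several kinds. Heavy chains of the SLC3 family pair with SLC7 light chains to form exchangers. Some SLC1 and SLC38 carriers use the sodium gradient to concentrate amino acids, and SLC36 and some SLC38 proteins act at the lysosome. The exchanger of SLC3A2 with SLC7A5 brings leucine into the cell, and SLC38A9 at the lysosome takes part in the sensing of arginine by mTORC1.

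The 6 probes below are shown because they belong to 5 of the 6 transporters with an unadjusted p under 0.05, for both shRNAs against control or between the shRNAs. None is shown for SLC6A4. Each has at least 1 reading frame without a stop codon, and they were picked by hand among such probes. The letters are those of the deposited array design, 5′ to 3′. SLC38A9 has 3 probes, and 2 are shown. The first is the brightest and lies at chr20:25135719-25136962 on the plus strand of HGSC Btau_3.1, so its 60 bases span 1244 bases of the genome. The other lies at chr20:25082327-25082386, plus strand. The SLC38A6 probe lies at chr10:75279770-75280015, plus strand, and its 60 bases span 246 bases. The SLC6A9 probe shown lies at chr3:108929220-108929279, plus strand. The SLC6A14 probe shown lies on an unplaced scaffold, at bases 11937 to 11996 of its minus strand. The SLC7A6 probe shown lies at chr18:34690132-34690631, plus strand, and spans 500 bases. For SLC6A9, SLC6A14 and SLC7A6 the probe shown is a dimmer one, and the brightest is not shown; that SLC6A9 probe was well above background on 4 arrays.
SLC38A9 brightest probe: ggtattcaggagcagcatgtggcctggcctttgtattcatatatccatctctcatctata
SLC38A9 second probe: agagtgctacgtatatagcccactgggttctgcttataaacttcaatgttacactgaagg
SLC38A6 only probe: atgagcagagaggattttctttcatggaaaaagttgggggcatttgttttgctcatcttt
SLC6A9 dimmer probe: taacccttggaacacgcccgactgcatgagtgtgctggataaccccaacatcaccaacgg
SLC6A14 dimmer probe: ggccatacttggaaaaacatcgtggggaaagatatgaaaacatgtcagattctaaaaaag
SLC7A6 dimmer probe: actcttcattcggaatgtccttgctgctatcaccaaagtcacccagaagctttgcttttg

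Levels are log2 intensity minus the array's own 75th percentile, so 0 marks a probe at that percentile of its array. The percentile lay between 1276 and 2100 intensity units, and 60.7% to 71.6% of probes were well above background per array. Both shRNA groups lay below both controls for EEF1D itself: 5.97, 5.85 and 5.09 with EEF1D-1357, 5.99, 5.74 and 5.76 with EEF1D-1893, and 7.11 and 6.14 in controls 1 and 2. The difference for both shRNAs was -0.89 (SE 0.32, limma adjusted p = 0.243), with -0.41 when control 1 was left out (limma adjusted p = 0.593) and -1.38 when control 2 was (limma adjusted p = 0.0378). The controls were less alike than arrays of a shRNA group. Log2 differences between the pair of controls had an SD of 0.83 over all genes, against 0.50 to 0.73 within a shRNA group. Of 8 luminal markers 7 were measured, all on 8 arrays, and ELF5 was not. Their summed level was 480 to 548 on the shRNA arrays, 922 in control 1 and 513 in control 2. The basal sum, over 6 of 7 markers (MYH11 not measured), was 190 to 218 with EEF1D-1357, 150 to 320 with EEF1D-1893, and 292 and 306 in the controls. The sum of 6 fibroblast markers was 1.29 to 1.49, then 1.59 to 3.80, against 2.19 and 2.75. For both shRNAs together, all 6 measured basal and all 6 fibroblast markers had a difference below 0, against 57.2% of all genes. So did 6 of 7 luminal, 4 of 5 leukocyte, 1 of 2 endothelial, 2 of 5 neuron and glia and 0 of 2 adipocyte markers. With EEF1D-1893 alone 1 basal and 1 fibroblast marker lay above 0. Of the 6 fibroblast markers 3 were above background on all 8 arrays. None of these markers passed the adjusted test. Sums of other cell types over all arrays were 0.11 to 0.28 for endothelium (PECAM1 and KDR not measured), 5.99 to 10.3 for leukocytes, 0.04 to 0.52 for adipocytes (ADIPOQ and LEP not measured) and 2.74 to 9.67 for neurons and glia. These are sums of linear levels relative to the array's 75th percentile. The part of these differences in the results was not tested.

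The families were unequally represented. All 3 SLC43 genes and both SLC3 genes were measured, as were 4 of 6 SLC1, 7 of 10 SLC38, 7 of 13 SLC7, 9 of 17 SLC6 and 1 of 3 SLC36 genes. Of the 33 measured genes, 23 were well above background on all 8 arrays. The other 10 were SLC3A1, SLC6A2, SLC6A6, SLC6A12, SLC6A13, SLC6A17, SLC7A1, SLC7A2, SLC7A8 and SLC38A3. Among these, SLC3A1, SLC6A6, SLC6A17 and SLC7A1 reached it on 2 arrays.

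Of the 54 genes, 21 had no probe well above background on more than 1 array. Of these, 5 reached it on 1 array, namely SLC1A6, SLC6A11, SLC7A14, SLC36A2 and SLC38A4, and 16 on none. The 16 include SLC7A11, the light chain of the cystine exchanger, which 1 probe read. They also include the cationic carrier SLC7A3, the system N carrier SLC38A5 with 3 probes, the glycine carrier SLC6A5 and the light chains SLC7A9, SLC7A10 and SLC7A13. Others were SLC1A7, SLC6A7, SLC6A15, SLC6A16, SLC6A18, SLC6A20, SLC36A3 and SLC38A11. At this signal the arrays could not show a difference for any of the 21. Where cells of different kinds are measured together, fewer cells of a type and less RNA per cell cannot be told apart.

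**Figure D1:**
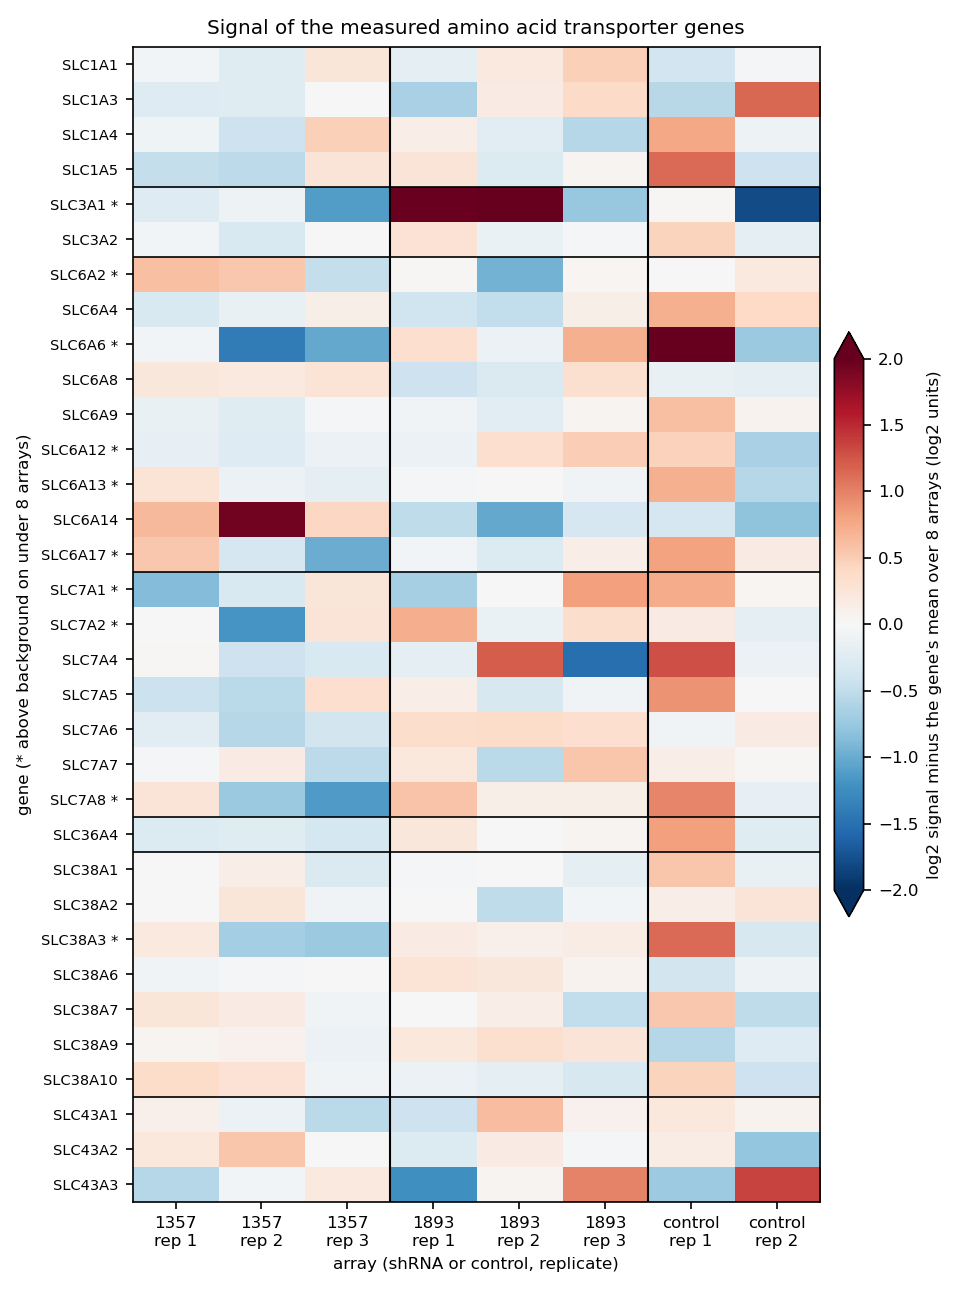
Log2 signal of each measured transporter gene minus its mean over the 8 arrays, in log2 units, with arrays as columns and families divided by horizontal lines. Control 1 holds the highest value of 16 of the 33 genes, more than any other array, and an asterisk marks genes above background on under 8 arrays.

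Against the controls, no transporter gene passed the test. The mean of both shRNA groups was compared with the controls in limma, with Benjamini-Hochberg adjustment over all 12608 genes, and 0 of 33 members had an adjusted p under 0.05. The same held for the whole array, where 0% of genes were called. At an unadjusted p under 0.05 there were 4 members (12.1%), against 16.9% of all genes. They were SLC38A9 and SLC38A6, which were higher (7.34% of all genes), and SLC6A4 and SLC6A9, which were lower (9.60% of all genes). Of the members 24 (72.7%) lay below 0, against 57.2% of all genes, and 9 lay above 0, against 42.8%. A log2 difference over 1 in size was found for 2 members, SLC3A1 and SLC6A6, both near background, and for 4.65% of all genes. The members' median difference was -0.19, against -0.07 over all genes. Both shRNA groups lay below both controls for 2 members and above them for 2, where 9.19% and 7.69% of all genes did so.

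Among the SLC38 carriers outside systems A and N were the 2 members with the higher values, SLC38A9 and SLC38A6. SLC38A9, the lysosomal carrier named above, measured 0.02, 0.04 and -0.17 with EEF1D-1357 and 0.16, 0.28 and 0.22 with EEF1D-1893. The controls measured -0.61 and -0.30. All 6 shRNA arrays lay above both controls, and the EEF1D-1893 arrays lay above the EEF1D-1357 arrays. Both shRNAs together exceeded the controls by 0.55 (SE 0.14, limma adjusted p = 0.159), with the smallest unadjusted p of the 33 members. EEF1D-1357 alone gave 0.42 (SE 0.15, limma adjusted p = 0.266) and EEF1D-1893 alone 0.68 (SE 0.15, limma adjusted p = 0.212); these 2 comparisons share the controls. Each slide of the array set held the 3 arrays of 1 shRNA and 1 control, so the comparison could also be made within slides. Within slide 1 EEF1D-1357 exceeded its control by 0.26, and within slide 2 EEF1D-1893 exceeded its control by 0.83. With slide as a block the adjusted p of SLC38A9 was 0.0433, where 695 genes of the whole array were called. That fit takes its spread from the shRNA arrays alone. Without control 1 the difference was 0.39 (limma adjusted p = 0.247), and without control 2 it was 0.70 (limma adjusted p = 0.0211).

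All 3 probes of SLC38A9 were higher with both shRNAs. The probe at the 5′ end (the second sequence above) read -2.93, -3.01 and -3.07 with EEF1D-1357, -2.89, -2.97 and -2.87 with EEF1D-1893, and -3.71 and -3.45 in the controls. It kept the shRNA arrays apart from both controls, with a difference of 0.62. The third probe differed by 1.19, but its lowest shRNA array (-2.54) lay below control 2 (-2.18). The probes were read from the same RNA and are not replicates.

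SLC38A6, a carrier of the same family whose transport is less well described, measured -1.16, -1.11 and -1.09 with EEF1D-1357, -0.82, -0.87 and -1.02 with EEF1D-1893, and -1.46 and -1.20 in the controls. The groups did not overlap, but the lowest shRNA array exceeded the higher control by little. Its difference was 0.32 (SE 0.13, limma adjusted p = 0.277), and 0.19 without control 1 (limma adjusted p = 0.500). With slide as a block, each shRNA was set against the 1 control on its own slide. EEF1D-1893 exceeded control 1 by 0.56, and EEF1D-1357 exceeded control 2 by 0.08. That fit takes its spread from the shRNA arrays alone, so no p-value is given for these values. The other measured genes of this group, SLC38A7 and SLC38A10, differed by -0.02 and -0.03 with overlapping groups.

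The system A carriers take up small neutral amino acids with sodium, and neither of those measured passed the test. SLC38A2 measured 3.95, 4.196 and 3.88 with EEF1D-1357, 3.96, 3.45 and 3.90 with EEF1D-1893, and 4.09 and 4.22 in the controls. Only the EEF1D-1893 arrays were all below both controls. The difference for both shRNAs was -0.26 (SE 0.18, limma adjusted p = 0.469). The 5 probes of SLC38A2 differed in sign. From 5′ to 3′ they gave -0.59, -0.26, 0.44, 0.22 and 0.02 for both shRNAs against control. The most 5′ probe kept the shRNA arrays (0.82 to 1.74) below both controls (2.15 and 1.83), and the 3 most 3′ probes overlapped. SLC38A1 measured -1.996, -1.85 and -2.27, then -2.01, -2.0 and -2.18, against -1.43 and -2.14 in the controls. Control 1 was the highest array and control 2 lay among the shRNA arrays, so that the difference of -0.27 (SE 0.21) became 0.09 without control 1. The system N carrier SLC38A3 differed by -0.55 with overlapping groups, and by 0.18 without control 1.

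**Figure D2:**
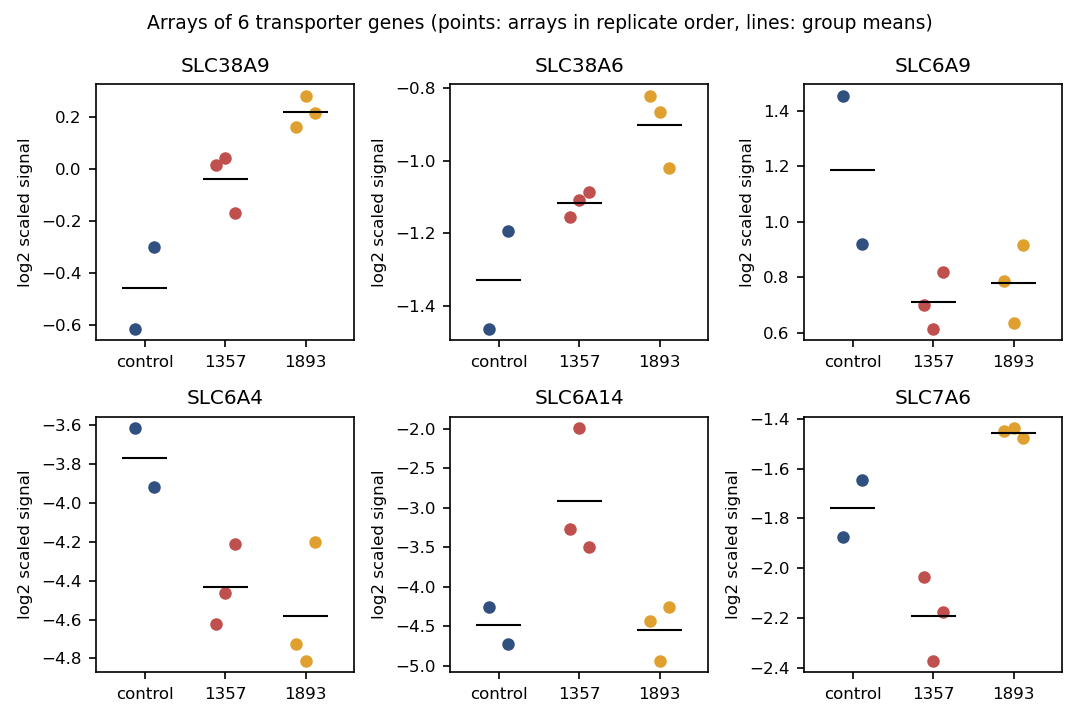
Log2 scaled signal of 6 transporter genes in each array (points) with group means (lines), for control, EEF1D-1357 and EEF1D-1893; each panel has its own axis. SLC38A9 and SLC38A6 lie above both controls on all 6 shRNA arrays, and SLC6A9 and SLC6A4 below them. SLC6A14 is highest with EEF1D-1357. On its brightest probe, drawn here, SLC7A6 lies on opposite sides of the controls in the shRNA groups.

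In the SLC6 family were the 2 members with the lower values, SLC6A9 and SLC6A4. SLC6A9, a glycine carrier, measured 0.70, 0.62 and 0.82 with EEF1D-1357, 0.79, 0.64 and 0.92 with EEF1D-1893, and 1.45 and 0.92 in the controls. All shRNA arrays lay below both controls, the highest of them only just below control 2. The difference was -0.44 (SE 0.17, limma adjusted p = 0.266), and -0.18 without control 1. Its dimmer probes differed by -0.56 and -1.01 in the same direction, with overlapping groups. SLC6A4, the serotonin carrier, was dim but above background on all 8 arrays. It measured -4.62, -4.47 and -4.21 with EEF1D-1357, -4.73, -4.81 and -4.20 with EEF1D-1893, and -3.62 and -3.92 in the controls. The groups did not overlap, and the difference was -0.74 (SE 0.21, limma adjusted p = 0.191). Without control 1 it was -0.59, and without control 2 it was -0.89.

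SLC6A14, a carrier of neutral and cationic amino acids, had its highest values with EEF1D-1357, without passing the adjusted test. It measured -3.27, -1.998 and -3.50 with EEF1D-1357, -4.43, -4.94 and -4.26 with EEF1D-1893, and -4.25 and -4.73 in the controls. All EEF1D-1357 arrays lay above all 5 others, and the EEF1D-1893 arrays overlapped the controls. EEF1D-1357 exceeded the controls by 1.57 (SE 0.46, limma adjusted p = 0.223), whereas EEF1D-1893 differed from them by -0.06 (SE 0.46, limma adjusted p = 0.967). EEF1D-1357 exceeded EEF1D-1893 by 1.62 (SE 0.41, limma adjusted p = 0.747), a fold of 3.08, and by 2.10 with slide as a block (limma adjusted p = 0.198). Of its 2 dimmer measured probes, 1 was above background on 5 of the 8 arrays. On that probe EEF1D-1357 exceeded EEF1D-1893 by 1.06 without overlap, and the controls by 0.21 with overlapping groups. The other was above background on 1 EEF1D-1357 array, 1 EEF1D-1893 array and no control. Its groups overlapped, and no fold is given for it.

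The rest of the SLC6 family was dim or differed little. The creatine carrier SLC6A8 was higher with EEF1D-1357 (-2.07, -2.11 and -2.03) than in both controls (-2.45 and -2.48), by 0.40 (SE 0.23, limma adjusted p = 0.396). With EEF1D-1893 it overlapped the controls. The taurine carrier SLC6A6, singled out after its values were seen, was well above background on 1 control array and 1 EEF1D-1893 array. It measured -3.44 in control 1 and -6.47 in control 2. It was well above background on no EEF1D-1357 array, and no fold is given. SLC6A17 was well above background on 1 control array and 1 EEF1D-1357 array, and no fold is given for it either. SLC6A2, SLC6A12 and SLC6A13 differed by -0.14, 0.12 and -0.09 with overlapping groups.

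The heavy chain SLC3A2 and all 4 measured light chains had differences below 0 for both shRNAs together (median of the light chains -0.32), and none passed the test. Without control 1 the light chain median was -0.10, and 3 of 4 lay below 0. SLC3A2 measured 1.82, 1.57 and 1.87 with EEF1D-1357, 2.16, 1.73 and 1.82 with EEF1D-1893, and 2.31 and 1.67 in the controls. Control 2 lay among the shRNA arrays. The difference was -0.16 (SE 0.21, limma adjusted p = 0.711), and 0.16 without control 1. SLC7A5, its leucine-carrying light chain, measured 1.18, 1.07 and 1.95, then 1.74, 1.30 and 1.54, against 2.51 and 1.61 in the controls. Control 1 was the highest array and 2 shRNA arrays exceeded control 2. The difference was -0.59 (SE 0.32, limma adjusted p = 0.377), and -0.14 without control 1, and its other probes gave -0.45 and 0.11.

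SLC7A8, a light chain for neutral amino acids, measured -3.54, -4.54 and -4.93 with EEF1D-1357, -3.22, -3.67 and -3.67 with EEF1D-1893, and -2.82 and -3.96 in the controls. The difference of -0.54 (SE 0.43) came with overlapping groups and was 0.03 without control 1. SLC7A7, a light chain for cationic and neutral amino acids, differed by -0.11 on its brightest probe with overlapping groups. Its other probe differed by -1.43. On that probe the EEF1D-1357 arrays (-4.22, -4.45 and -4.48) lay below both controls (-3.425 and -1.40) and below the EEF1D-1893 arrays. The EEF1D-1893 arrays overlapped the controls. On their brightest probes, all 7 measured SLC7 genes had a difference below 0 with EEF1D-1357 (median -0.66), against 58.6% of all genes. With EEF1D-1893 it was 5 of 7 (median -0.13), against 53.2% of all genes. Without control 1 these medians were -0.21 and 0.05, with 7 and 2 of 7 genes below 0. The 7 include SLC7A1, which was well above background on no EEF1D-1357 array. Dimmer probes differed in sign with EEF1D-1357. They gave -0.53 and 0.14 for SLC7A5, -0.095, 0.054 and 0.38 for SLC7A6, -0.04 for SLC7A4 and -1.97 for SLC7A7. The cationic carrier SLC7A1 was above background on 2 arrays, measuring -6.93 to -5.24 over the shRNA arrays and -5.32 and -6.02 in the controls, so no fold is given. SLC7A2 and SLC7A4 differed by 0.01 and -0.78 with overlapping groups.

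On its brightest probe SLC7A6, a light chain for cationic amino acids, lay on opposite sides of the controls in the shRNA groups. It measured -2.03, -2.37 and -2.18 with EEF1D-1357, below both controls (-1.88 and -1.64). With EEF1D-1893 it measured -1.45, -1.44 and -1.48, above both. EEF1D-1357 was lower than EEF1D-1893 by 0.74 on the log2 scale (SE 0.14, limma adjusted p = 0.747). The slide block gave -0.97 for this difference (limma adjusted p = 0.0994). The same 2 groups lay apart, EEF1D-1357 lower, for 4 of 33 members, against 14.9% of all genes, and higher for 2, against 6.73%. The other 3 probes of SLC7A6 gave -0.51, -0.06 and 0.06 for this comparison, from 5′ to 3′. The probe shown above, at the 5′ end, read -4.54, -4.58 and -4.67 with EEF1D-1357 and -4.32, -3.99 and -3.97 with EEF1D-1893, with no overlap. The 2 most 3′ probes overlapped between the shRNAs. Against the controls, the 3 dimmer probes gave -0.095, 0.054 and 0.38 with EEF1D-1357, from 5′ to 3′, each with overlapping groups. With EEF1D-1893 they gave 0.411, 0.115 and 0.322, and only the 5′ probe kept those arrays above both controls.

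SLC3A1, the heavy chain of the renal cystine carrier, had too little signal to compare except in EEF1D-1893. It was above background on 2 of 3 EEF1D-1893 arrays (-3.94 and -3.89, with the third at -6.67) and on no other array. The gene entered the fit only through those 2 arrays, so its higher signal there follows from the filter and is no separate support. The third EEF1D-1893 array lay below control 1 (-5.90), and the groups overlapped. The gene's other probe was well above background on no array. With the 3 EEF1D-1893 arrays as measured, their mean was at least 1.75-fold higher than the control mean and at least 1.44-fold higher than the EEF1D-1357 mean. These bounds describe the arrays only. They rest on the same 2 arrays that brought the gene through the filter, so they are no support for a difference between the groups. Such a bound sets the brighter group's mean against the higher, on each array, of the dim signal and the lowest signal well above background. The fitted log2 difference from the controls, 1.96 (SE 0.93, limma adjusted p = 0.401), rests on signals at background and is no measure of the fold.

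**Figure D3:**
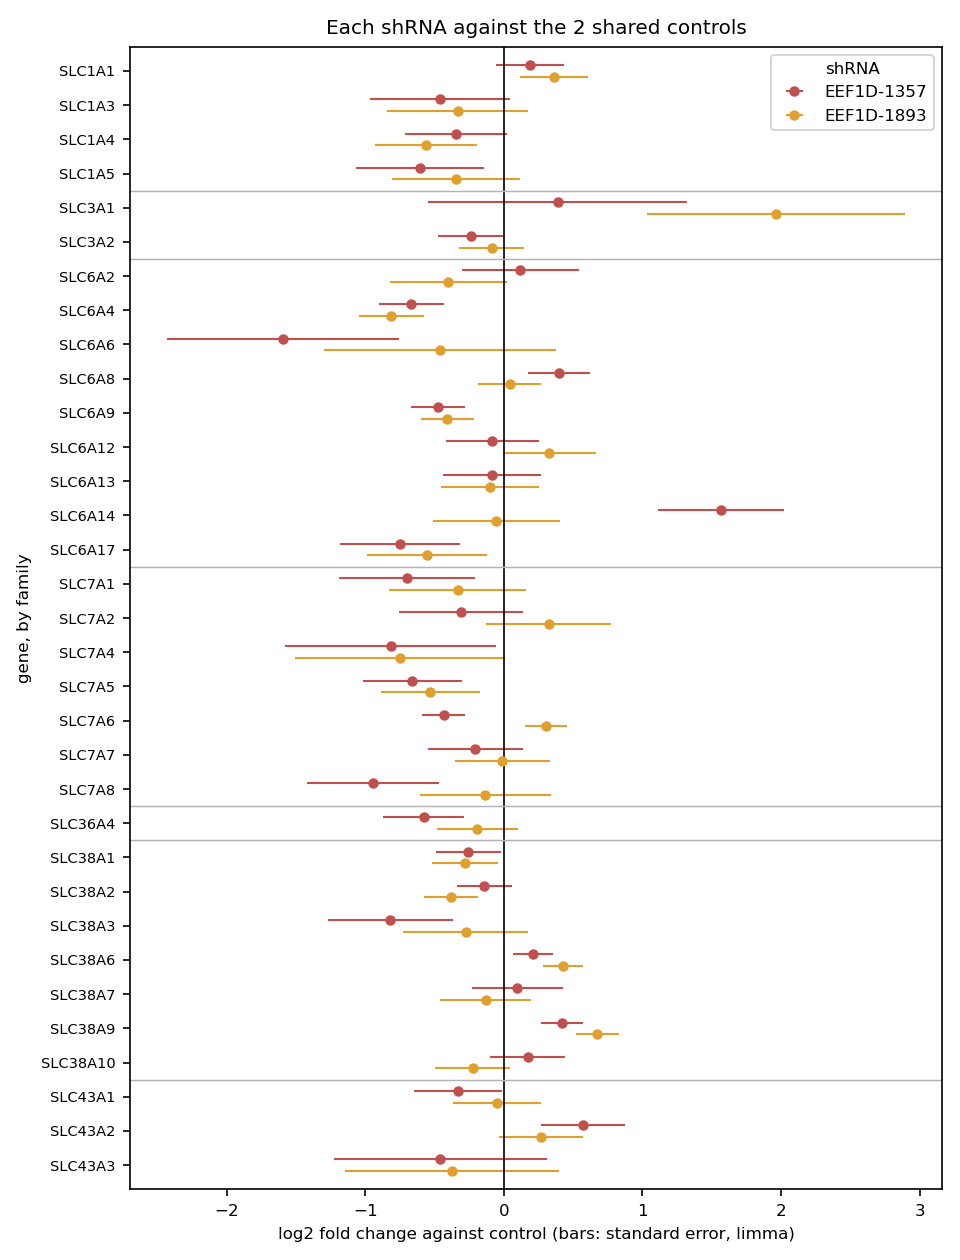
Log2 fold change of each transporter gene against the 2 shared controls for each shRNA, with limma standard errors, divided by family. On the brightest probes, drawn here, all 7 SLC7 genes lie below 0 with EEF1D-1357. SLC38A9 and SLC38A6 lie above 0 with both shRNAs, and no gene passed the adjusted test.

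The SLC1 family contains neutral exchangers and glutamate carriers. SLC1A5, the glutamine carrier, measured 2.49, 2.43 and 3.22 with EEF1D-1357, 3.22, 2.69 and 3.01 with EEF1D-1893, and 4.09 and 2.55 in the controls. Control 1 was the highest array and control 2 was lower than 4 of 6 shRNA arrays. The difference of -0.47 (SE 0.41, limma adjusted p = 0.572) was 0.30 without control 1 and -1.25 without control 2. SLC1A4, which carries alanine and serine, measured 0.02, -0.30 and 0.59, then 0.24, -0.12 and -0.46, against 0.89 and 0.01. Its difference was -0.45 (SE 0.33, limma adjusted p = 0.495), and -0.02 without control 1. A dimmer probe, above background on 7 arrays, gave -0.86 with overlapping groups. The dimmest probe, above background on 3 arrays, gave -1.12 with all shRNA arrays below both controls.

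SLC1A1, a glutamate carrier of many epithelia, measured 1.42, 1.22 and 1.71, then 1.28, 1.66 and 1.94, against 1.09 and 1.43 in the controls. Control 1 was the lowest array and the difference was 0.28 (SE 0.22, limma adjusted p = 0.535), without a gap between the groups. SLC1A3, another glutamate carrier, differed by -0.40 with control 2 the highest array, at 0.82, and control 1 at -0.89. Of the neutral carriers of the SLC43 family, SLC43A2 measured 0.40, 0.75 and 0.18, then -0.08, 0.35 and 0.17, against 0.33 and -0.58. Control 1 lay among the shRNA arrays and control 2 below all of them, and the difference was 0.42 (SE 0.27, limma adjusted p = 0.449). SLC43A1 measured 1.58, 1.35 and 0.93, then 1.06, 2.08 and 1.56, against 1.69 and 1.54, a difference of -0.19 (SE 0.28). SLC43A3, which carries purine bases, differed by -0.42 with a wide spread, its values running from -3.47 to -0.89.

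SLC36A4, the only SLC36 carrier measured, measured -3.61, -3.57 and -3.68 with EEF1D-1357, -3.10, -3.32 and -3.27 with EEF1D-1893, and -2.50 and -3.58 in the controls. EEF1D-1357 arrays were all lower than EEF1D-1893 arrays, with a difference of -0.39 (SE 0.26, limma adjusted p = 0.753). Slide goes with the shRNA here, and with slide as a block the difference was 0.69 (limma adjusted p = 0.116). The 2 shRNAs together gave -0.39 (SE 0.26, limma adjusted p = 0.468), which was 0.15 without control 1 and -0.92 without control 2.

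Where a gene had several probes, they could be compared within each array. Of the 16 members with several measured probes, 10 had all probes on the same side of 0 for both shRNAs against control, 7 below and 3 above. The share over all genes with several probes is not given, and probes of a gene share the same arrays and controls. Some of the 10 lay close to 0, as SLC38A7 did (-0.12 to -0.02), so the same sign is no separate support. The 3 above were SLC38A9, SLC1A1 and SLC6A12. The other 6, with probes on both sides, were SLC6A14, SLC7A4, SLC7A5, SLC7A6, SLC38A2 and SLC38A10. One dimmer probe of SLC38A10 kept all shRNA arrays above both controls, by 0.51, while its brightest probe differed by -0.03.

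**Figure D4:**
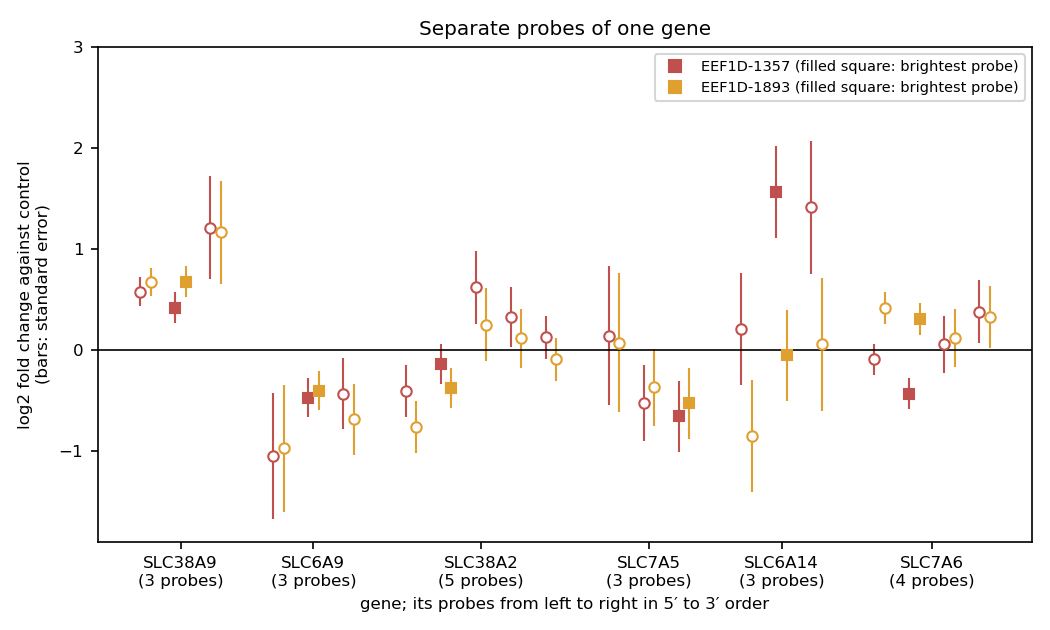
Log2 fold change against control for each measured probe of 6 transporter genes, for each shRNA, with limma standard errors; probes run 5′ to 3′ and filled squares are the brightest. All 3 SLC38A9 probes lie above 0 and all 3 SLC6A9 probes below 0 with both shRNAs, whereas the SLC38A2 probes run from -0.59 to 0.44 for both shRNAs together.

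Many transporter values depended on which control array was used. Control 1 was the highest of the 8 arrays for 16 of 33 members (48.5%), against 39.1% of all genes, and control 2 for 3. Set against control 1 alone and against control 2 alone, 16 members (48.5%) had opposite signs, against 47.2% of all genes. They were SLC1A3, SLC1A5, SLC3A2, SLC6A6, SLC6A12, SLC6A13, SLC7A2, SLC7A6, SLC7A8, SLC36A4, SLC38A1, SLC38A3, SLC38A7, SLC38A10, SLC43A2 and SLC43A3. A further 11 members lay below both and 6 above both. Without control 1 the members' median was 0.10, with 0.06 over all genes, and 14 members lay below 0. Without control 2 it was -0.46, with -0.21 over all genes, and 6 members passed limma's adjusted p: SLC6A6, SLC6A9, SLC6A13 and SLC36A4 lower, and SLC38A6 and SLC38A9 higher. That fit has a single control array, assumed to vary like the shRNA arrays, and SLC6A6 was well above background on 1 of the 6 shRNA arrays. In it 2916 genes of the array passed, and 26 passed without control 1, none of them a member.

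**Figure D5:**
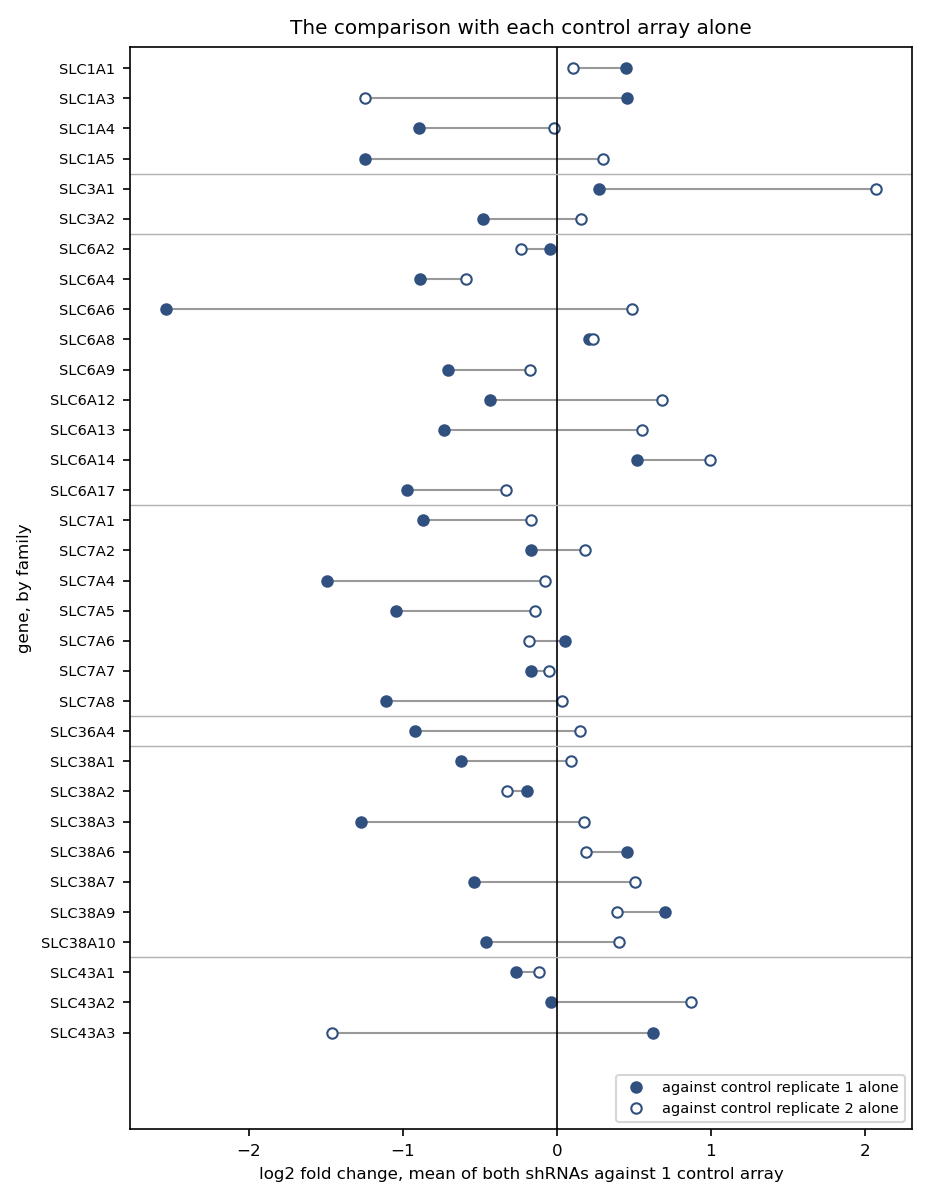
Log2 fold change of both shRNAs together against control 1 alone (filled) and control 2 alone (open) for each transporter gene, joined by a line. The 2 values lie on opposite sides of 0 for 16 of 33 genes, and both lie above 0 for SLC38A9 and SLC38A6.

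Each shRNA alone gave no call either, and the 2 comparisons share the control arrays. With EEF1D-1357, 5 members had an unadjusted p under 0.05 (15.2%, against 16.2% of all genes), of which 2 were higher (6.23% of all genes) and 3 lower (9.95%). In that comparison 23 members lay below 0 (58.6% of all genes) and 10 above (41.4%), and the median was -0.31 (all genes -0.09). SLC6A6 and SLC6A14 differed by over 1, as 6.85% of all genes did. With EEF1D-1893, 3 members had such a p (9.09%, against 14.1%), of which 2 were higher (6.77% of all genes) and 1 lower (7.31%). There 24 members lay below 0 (53.2% of all genes) and 9 above (46.8%), and the median was -0.19 (all genes -0.03). SLC3A1 differed by over 1, as 5.09% of all genes did. Arrays of EEF1D-1357 lay below both controls for 3 members and above for 4, where 18.4% and 12.2% of all genes did. Arrays of EEF1D-1893 lay below for 4 and above for 3, where 14.6% and 13.6% did. The shRNAs lay on different slides, EEF1D-1357 on slide 1 and EEF1D-1893 on slide 2, so a direct comparison of them cannot be told apart from slide except through the 1 control on each. With slide as a block its median over the members turned from -0.15 to 0.45. Without the block, directly between the shRNAs 2 members, SLC7A6 and SLC6A14, had an unadjusted p under 0.05 (6.06%, against 6.42% of all genes). SLC6A14 was higher with EEF1D-1357, as 2.59% of all genes were, and SLC7A6 lower, as 3.83% were. EEF1D-1357 lay below EEF1D-1893 for 22 members (58.4% of all genes) and above it for 11 (41.6%). The difference was over 1 for SLC3A1, SLC6A6 and SLC6A14, and for 4.27% of all genes.

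Genes that sense, respond to or handle amino acids were counted beside the transporters, and none passed the adjusted test. Of 33 measured genes of amino acid sensing for mTORC1, 6 were higher and 3 lower at an unadjusted p under 0.05, where 7.34% and 9.60% of all genes were. The median was -0.05. SAR1B, a leucine sensor, measured -1.05, -0.96 and -1.07 with EEF1D-1357, -0.98, -0.82 and -0.90 with EEF1D-1893, and -1.39 and -1.51 in the controls, a difference of 0.48 (SE 0.12, limma adjusted p = 0.155). LAMTOR3, a subunit of the lysosomal anchor on which SLC38A9 also acts, differed by 0.64 (SE 0.20) and NPRL2, a subunit of a complex that restrains mTORC1, by -0.56 (SE 0.14). Both kept the shRNA arrays apart from both controls. Without control 1 they were 0.37 and -0.37.

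Of 22 measured genes of the GCN2 and ATF4 response, which senses uncharged tRNA and raises carriers and amino acid synthesis, 1 was higher and 5 lower at an unadjusted p under 0.05, beside 7.34% and 9.60% of all genes. Their median was -0.35, and -0.13 without control 1. CBS, a transsulfuration enzyme, differed by -0.82 (SE 0.14, limma adjusted p = 0.137), PSAT1 of serine synthesis by -1.21 (SE 0.41) and EIF2S1, the initiation factor subunit that GCN2 phosphorylates, by 0.64 (SE 0.16). Without control 1 the difference was -0.74 for CBS, -0.78 for PSAT1 and 0.36 for EIF2S1.

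Among 20 other amino acid and peptide carriers, 2 were lower and 0 higher at that p (9.60% and 7.34% of all genes), and the median was -0.06. SLC16A10, a carrier of aromatic amino acids, measured -5.52, -6.06 and -6.24 with EEF1D-1357, -5.39, -4.87 and -4.99 with EEF1D-1893, and -4.64 and -4.03 in the controls. Both shRNA groups lay below both controls, with a difference of -1.18 (SE 0.26, limma adjusted p = 0.153), and it was above background on 5 arrays. CTNS, the lysosomal cystine exporter, differed by -0.50 (SE 0.19) with overlapping groups, and by -0.32 without control 2. Of 29 genes of amino acid metabolism, 2 were higher and 2 lower at that p, again against 7.34% and 9.60% of all genes. DLD differed by 0.44 (SE 0.15) and OAT by 0.65 (SE 0.22), the latter 0.34 without control 1. BCKDK, the kinase that restrains branched-chain degradation, differed by -0.42 (SE 0.16), and by -0.14 without control 1. PRODH, of proline degradation, named after its values were seen, differed by -0.70 (SE 0.28) with overlapping groups. Of 15 trafficking and partner genes, 1 was higher and 1 lower, with the same shares of all genes. They were the ubiquitin ligase NEDD4L, at 0.44 (SE 0.17), and the scaffold NHERF1, at -0.49 (SE 0.16).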

How the data were processed

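Gene expression was measured on 8 one-colour Agilent arrays. The authors' intensity values were deposited as Feature Extraction output, made with version 10.7.3.1 per the file headers (the submitters' processing notes name version 9.1), and the processed signal was already background-corrected there. The deposited log2 values of the authors have equal quartiles on all arrays, as quantile normalization gives, with the step not given in the sources used here, and served as an alternative. Here each array's processed signal was put on the log2 scale and its 75th percentile was subtracted. Control spots were left out. Probes were kept if well above background on at least 2 arrays, and probe names were updated through RefSeq's gene table (assembly ARS-UCD2.0, names only). Each gene was read from its brightest probe, and 12608 genes were fitted with limma 3.58.1 in R 4.3.3 with 1 mean per group over all 8 arrays. P-values were Benjamini-Hochberg adjusted over all genes, with a threshold of 0.05. The fit was tested on simulated data. The number of arrays limits the precision.

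Values in every array are given for transporters with well known mammary roles and for those that a test or a lack of overlap singled out, and all others by range or count. The members and lists were chosen with earlier results of these data known. Alternatives were other scalings, background corrections, filters and probe rules, array weights, slide or replicate number as a block, and leaving out each array.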

Additional observations from a re-analysis of the deposited data

Results flagged for a closer look

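On its brightest probe SLC7A6, a light chain for cationic amino acids, lay below both controls with EEF1D-1357 and above both with EEF1D-1893. The difference of EEF1D-1357 from EEF1D-1893 was -0.739 on the log2 scale (limma adjusted p = 0.747), and its other probes gave -0.51, -0.06 and 0.06. With EEF1D-1357 against control those other probes gave -0.095, 0.054 and 0.38, each with overlapping groups. No test was made of what lies behind the difference.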

How the results depend on the processing

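Leaving out control 2 brought 6 transporter genes past the threshold for both shRNAs, 6 for EEF1D-1357 and 4 for EEF1D-1893, and leaving out any other single array brought 0, so the range was 0 to 6, 0 to 6 and 0 to 4. With slide as a block the count was 1 for both shRNAs. There EEF1D-1893 was set against control 1 alone, the same comparison as without control 2, so it is not counted again. For both shRNAs together, many other genes of the array passed under these settings too. The share of all genes called is not given for each shRNA alone, so these counts cannot be read as particular to the transporters. The members' median for both shRNAs ran from -0.459 (without control 2) to 0.102 (without control 1), and was 0.127 without control 1 and EEF1D-1357 replicate 3 together, chosen after seeing the data. For EEF1D-1357 it ran from -0.512 to -0.042, was -0.042 with the slide block and -0.011 without that pair. For EEF1D-1893 it ran from -0.404 to 0.189, was -0.404 with the slide block and 0.189 without the pair. Between the shRNAs the slide block gave 0.449.

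The sign for both shRNAs turned when arrays were left out, over ranges of -1.246 to 0.297 for SLC1A5, -0.48 to 0.155 for SLC3A2, -1.11 to 0.18 for SLC7A8, -0.921 to 0.166 for SLC36A4, -0.624 to 0.146 for SLC38A1, -0.036 to 0.94 for SLC43A2 and -0.185 to 0.051 for SLC7A6. Without the pair named above, SLC1A5 was 0.171 and SLC3A2 0.127. SLC7A6 also turned to 0.026 under normexp with quantile normalization, 0.022 under median scaling and 0.132 as the mean of its probes. The cause was not tested. Replicate numbers did not pair the arrays (correlations of deviations from -0.115 to 0.142), and with the replicate block the median was -0.171, with 0 transporter genes called. Genes near background have little precision.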
